A study of Homo sapiens with 2 samples.

Results

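The genes described here are pseudogenes of cytosolic ribosomal proteins, copies of ribosomal protein genes that have lost the capacity to encode the protein. They were taken as the rows of the counts whose Ensembl identifier maps to a pseudogene with a symbol made of RPL or RPS, a number, an optional letter, P and a number, such as RPL7P9, on chromosomes 1 to 22. Of 1497 genes with such a symbol in the GENCODE annotation on GRCh37 (the build that the study calls hg19), 1495 are pseudogenes, 1430 of these lie on chromosomes 1 to 22, and 1425 have a row among the 64081 genes of the counts. The annotation classes 1406 of them as processed pseudogenes and the other 19 as unprocessed pseudogenes or as pseudogenes without a further class. Both samples are labelled as controls. The cells were LNCaP, an androgen-sensitive line of prostate carcinoma, and the methods name no genetic change or agent for them. They were kept for 48 h in medium whose serum was replaced by charcoal stripped serum, without added androgen. Strand-oriented libraries of their poly(A)+ RNA were sequenced in pairs for 2 biological replicates, whose deposited counts stand together in 1 column. No value below therefore has a replicate error, there is 1 condition, and no comparison has a test. The 95% intervals of counts take in counting error alone, and those of shares treat pseudogenes as separate draws.

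Processed pseudogenes arise when the messenger RNA of a parent gene is reverse transcribed by the machinery of LINE-1 retrotransposons and inserted elsewhere in the genome. The copy has no introns, lacks the promoter of the parent, and often carries the remnant of a poly(A) tail behind its 3′ end. Ribosomal protein genes are short, are transcribed strongly in nearly all cells including the germ line, and are the source of one of the largest groups of such copies in the human genome. Because insertion takes place in any orientation, a copy can lie in an intron of another gene on the same strand as that gene or on the opposite strand, or between genes. A copy without a promoter of its own can be covered by RNA of the gene in which it lies, and the strand of that RNA is the strand of the host gene.

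The counts on genes add up to 9495309 pairs, with 48.5% on the 3 highest genes, and 28576 genes had at least 1 count. The study's methods give library type fr-secondstrand for mapping these libraries and the reverse setting of htseq-count for paired-end strand-specific data. With these settings together, a pair is assigned to the gene on the strand opposite to the RNA from which it came, so the count listed for a pseudogene stands for RNA of the other strand at that place. All counts below are listed counts in this sense. Among markers of prostate luminal cells, KLK3 had 18 listed counts, KLK2 had 89 and KRT8 had 6947. Of the markers of basal cells, KRT5 was listed at 0 and TP63 and KRT14 at 1. Under these settings, listed counts do not measure the RNA of the markers themselves, so the label of the cells could not be checked with them.

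The sequences of 5 pseudogenes are given, which are among those with the highest counts in their classes below. Their identity to the parent runs from 81.4% to 95.2%, while that of all pseudogenes runs from 64.9% to 100%. Each is a stretch of GRCh37 on the annotated strand of the pseudogene that aligns with the coding part of the parent messenger RNA, and capitals mark bases that differ from the parent or are absent from it. The stretch of RPL23AP64, at chr11:118874007-118874156 on the minus strand, has 15 differing bases and lacks 7 bases of RPL23A. Below it stands the matching stretch of RPL23A, coding bases 1 to 157, in which capitals mark the same sites.
RPL23AP64: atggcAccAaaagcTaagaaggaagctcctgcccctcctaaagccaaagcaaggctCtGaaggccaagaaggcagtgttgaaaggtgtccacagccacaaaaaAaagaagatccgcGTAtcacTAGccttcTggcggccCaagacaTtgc
RPL23A: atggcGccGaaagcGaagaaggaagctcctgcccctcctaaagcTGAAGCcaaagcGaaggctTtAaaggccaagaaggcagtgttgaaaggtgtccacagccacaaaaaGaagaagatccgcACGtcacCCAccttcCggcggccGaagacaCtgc

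The stretch of RPS9P1, at chr21:37504748-37504897 on the plus strand, differs from RPS9 at 14 bases. The stretch of RPL31P10, at chr12:6519030-6519179 on the minus strand, differs from RPL31 at 7 bases. That of RPL9P29, at chr17:76842355-76842504 on the minus strand, differs from RPL9 at 23 bases and lacks 4. The stretch of RPL32P3, at chr3:129115118-129115267 on the minus strand, differs from RPL32 at 11 bases and holds 22 bases that RPL32 lacks.
RPS9P1: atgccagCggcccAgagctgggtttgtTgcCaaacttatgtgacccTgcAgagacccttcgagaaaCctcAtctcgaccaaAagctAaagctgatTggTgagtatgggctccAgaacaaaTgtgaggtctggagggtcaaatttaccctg
RPL31P10: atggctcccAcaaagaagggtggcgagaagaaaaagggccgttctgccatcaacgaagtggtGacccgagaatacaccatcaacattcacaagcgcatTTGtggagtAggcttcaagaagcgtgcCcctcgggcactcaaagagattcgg
RPL9P29: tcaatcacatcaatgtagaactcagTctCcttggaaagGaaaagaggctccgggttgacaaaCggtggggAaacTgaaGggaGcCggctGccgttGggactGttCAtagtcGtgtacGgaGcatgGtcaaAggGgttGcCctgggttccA
RPL32P3: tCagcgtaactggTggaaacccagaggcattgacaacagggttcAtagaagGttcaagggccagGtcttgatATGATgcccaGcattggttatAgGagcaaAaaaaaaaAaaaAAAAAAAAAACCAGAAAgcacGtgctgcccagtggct

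Each pseudogene was assigned to a class by the protein-coding and lncRNA genes that contain its whole span. Of the 1425 pseudogenes, 450 lie inside a gene on the opposite strand only, 276 inside a gene on the same strand only, 57 inside genes on both strands, and 642 inside no such gene. Other processed pseudogenes were placed likewise, with 2249 inside a gene on the opposite strand only and 1354 on the same strand only. The exonic length was alike in these classes, with medians of 467 nt, 459 nt, 474 nt and 468 nt, and so was the GC content, with medians from 45.7% to 47.6%.

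Ribosomal protein pseudogenes were listed with few counts, and the counts lay mostly on those opposite to a host gene. At least 1 count was listed for 439 of the 1425 pseudogenes (30.8%), against 49% of all genes with a gene model on chromosomes 1 to 22 and 29.9% of the other processed pseudogenes. At least 10 counts were listed for 214 of them (15.0%), against 27.1% of all genes and 14.7% of the other processed pseudogenes. At least 100 counts were listed for 22, while the shares were 8.68% of all genes and 3.31% of the other processed pseudogenes. The share with at least 10 counts is close to that of other processed pseudogenes and below that of all genes. Together the 1425 pseudogenes held 13201 counts.

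Inside a gene on the opposite strand, 281 of 450 pseudogenes (62.4%) had at least 1 count and 178 (39.6%, exact binomial interval 35.0% to 44.2%) had at least 10. Inside a gene on the same strand, 31 of 276 had at least 1 count and 3 (1.09%, 0.225% to 3.14%) had at least 10. Among processed pseudogenes only, this last share was 0.370% of 270. Without pseudogenes that overlap an exon of another gene, it was 0.405% of 247. Of those inside no gene, 105 of 642 had at least 1 count and 23 (3.58%, 2.28% to 5.33%) had at least 10. Of those inside genes on both strands, 22 of 57 had at least 1 count and 10 (17.5%, 8.75% to 29.9%) had at least 10. These intervals treat pseudogenes as separate draws; they share parents, hosts and 1 pool of libraries and are not replicates. The share was highest opposite to a host, lowest along a host, and that of pseudogenes inside genes on both strands lay in between. The intervals along a host and inside no gene overlap.

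The median count of the opposite class was 4, with quartiles of 0 and 22.75, and its highest count was 517. The medians of the other classes were 0. Per kb of annotated exon, the median of the opposite class was 9.51 counts per kb. This class, 31.6% of the pseudogenes, held 69.8% of their counts, and 85.0% without RPL9P29, which alone held 2352 counts. The same-strand class, 19.4% of the pseudogenes, held 1.83% of the counts.

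Processed pseudogenes of other parents were split by the same rule, to see which of these values the ribosomal protein pseudogenes share with them. Of 2249 other processed pseudogenes opposite to a host, 857 (38.1%, exact binomial interval 36.1% to 40.1%) had at least 10 counts, within the interval of the ribosomal protein pseudogenes. Along a host the share was 2.44% of 1354, inside genes on both strands 19.2% of 214, and inside no gene 5.63% of 4105. The order of the classes was the same in both sets. Of all counts of the other processed pseudogenes, 58.2% lay opposite to a host (28.4% of these pseudogenes) and 3.50% along a host (17.1%). The median of the other processed pseudogenes opposite to a host was 3 counts and 5.24 counts per kb, below the 4 counts and 9.51 counts per kb of the ribosomal protein pseudogenes. In the opposite class, at least 100 counts were listed for 20 ribosomal protein pseudogenes (4.44%) and for 211 others (9.38%). In the plot of count bands, the opposite class differs between both sets mainly in the band of 10 to 99, with 35.1% of the ribosomal protein pseudogenes and 28.7% of the others, and in that of 100 or more.

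**Figure D1:**
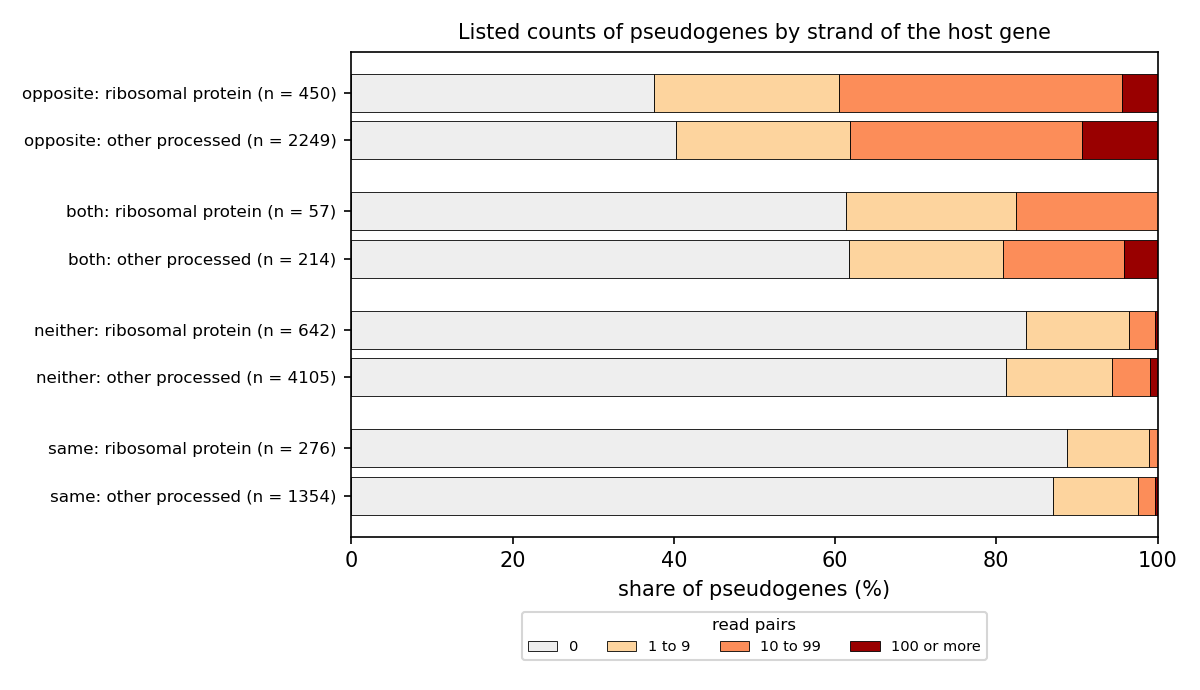
Share of pseudogenes (horizontal axis, percent) in bands of listed read pairs, for ribosomal protein pseudogenes and other processed pseudogenes in each class of host strand; n is the number of pseudogenes. The share at 0 is 37.6% for ribosomal protein pseudogenes opposite to a host and 88.8% for those along a host.

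Within the opposite class, counts differed with the kind of host. Of 346 pseudogenes opposite to at least 1 protein-coding gene, 169 (48.8%, exact binomial interval 43.5% to 54.2%) had at least 10 counts, with a median of 9 counts. Of 104 opposite to lncRNA genes only, 9 (8.65%, 4.03% to 15.8%) had at least 10 counts, with a median of 0. Other processed pseudogenes showed shares of 47.8% of 1592 and 14.6% of 657. Along a protein-coding host, 0 of 194 ribosomal protein pseudogenes had at least 10 counts, an exact upper bound of 1.88%, and the highest of them had 9. The 3 pseudogenes of the same-strand class with at least 10 counts are among the 82 that lie along lncRNA genes only (3.66%, 0.761% to 10.3%), and this interval overlaps that of the protein-coding hosts. Other processed pseudogenes had at least 10 counts in 27 of 923 (2.93%, 1.94% to 4.23%) along a protein-coding host and in 6 of 431 (1.39%, 0.513% to 3.01%) along lncRNA genes only, and these intervals overlap too.

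Most pseudogenes of the opposite class lie in introns. The exons of 419 of the 450 share no base with an exon on the opposite strand, and 163 of these (38.9%) had at least 10 counts, with a median of 4. Of the 31 that do share bases with such an exon, 15 (48.4%, exact binomial interval 30.2% to 66.9%) had at least 10 counts, with a median of 8. The intervals of both shares overlap. By the length of the smallest host, at least 10 counts were listed for 52 of 113, 49 of 112, 51 of 112 and 26 of 113 from the shortest to the longest of 4 groups, and the last group begins at hosts of 245242 nt.

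Genes that contain ribosomal protein pseudogenes in both orientations allow a comparison within the same gene. There are 21 such genes, each the smallest host of its pseudogenes, with 23 pseudogenes opposite to the gene and 22 along it. The count per kb was higher for the opposite orientation in 15 genes, equal at 0 in 5 and higher for the same orientation in 1. In UBE3C, a ubiquitin ligase gene, RPL36AP30 on the opposite strand had 69 counts and RPS27AP12 on the same strand 0. In SSH2, which encodes a cofilin phosphatase, RPL9P30 on the opposite strand had 52 counts and RPL21P123 on the same strand 0. In RSRC1, which encodes a splicing factor, RPL15P6 on the opposite strand had 24 counts and RPS12P7 on the same strand 0. The exception was WDPCP, where RPL27P6 on the opposite strand had 0 counts and RPS4XP5 on the same strand had 4. In PLPP3, RPL21P23 on the opposite strand had 9 counts and RPL23AP85 on the same strand had 5, the highest count of the same orientation among these genes. In 1 lncRNA gene, ENSG00000272840, the values per kb were nearly equal, at 3.86 for RPS24P9 on the opposite strand and 3.85 for RPS3AP14 on the same strand, with 1 and 3 counts; it stands among the 15. At least 10 counts were listed for the opposite orientation in 8 of the 21 genes and for the same orientation in 0. Over 392 genes that contain processed pseudogenes of any parent in both orientations, the count per kb was higher for the opposite orientation in 235, equal at 0 in 135 and higher for the same orientation in 22.

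Opposite to the same host, other processed pseudogenes carried counts per kb that followed those of the ribosomal protein pseudogenes. For 111 pseudogenes of the opposite class in 105 hosts, the host also contains at least 1 other processed pseudogene on the opposite strand. Spearman's rho of the counts per kb was 0.717 over these 111, 0.715 with 1 pseudogene a host and 0.708 over the 85 in protein-coding hosts. It is given as a description, since the points share 1 pool of libraries and values on both axes come from the same host. Where the other pseudogenes of the host had 0 counts, 2 of 26 ribosomal protein pseudogenes had at least 10 counts. Where they had 1 to 9 counts, 6 of 32 did, and where they had 10 to 49 counts, 16 of 33 did. Where they had at least 50 counts, 16 of 20 did, and the median was 21.5 counts. The count listed for the host gene followed less, but under the settings above it stands for the strand of the pseudogene. It therefore does not measure the RNA of the host. Over the 104 of these pseudogenes whose host has a row in the counts, Spearman's rho of the counts per kb was 0.208. Over all 423 such pseudogenes of the opposite class it was 0.258.

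**Figure D2:**
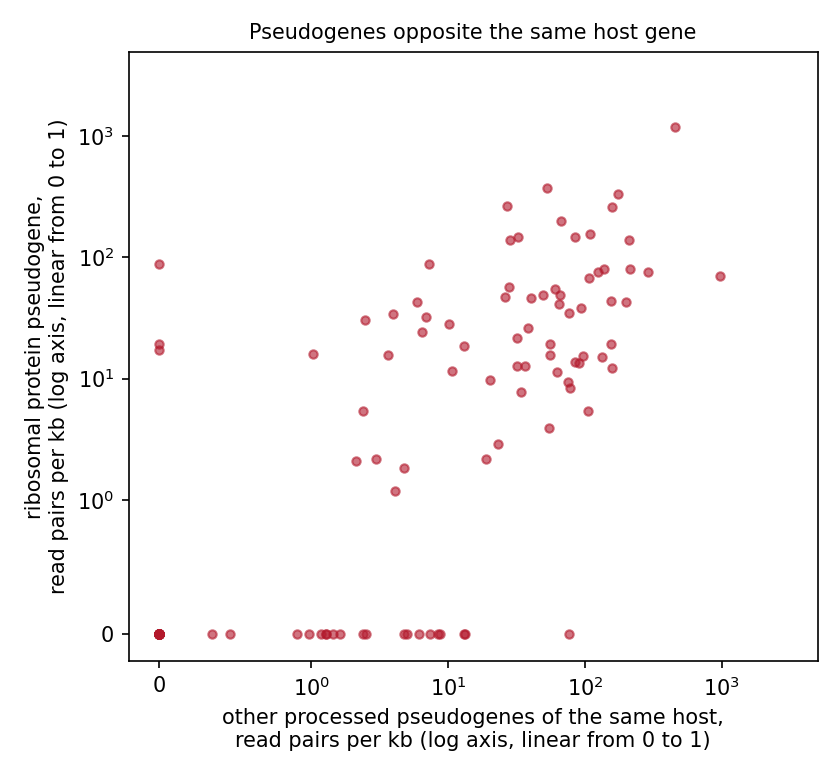
Listed read pairs per kb of 111 ribosomal protein pseudogenes opposite to a host gene (vertical axis) against the other processed pseudogenes opposite to the same host (horizontal axis); both axes are logarithmic above 1 and linear from 0 to 1, and each point is 1 ribosomal protein pseudogene. The points rise from lower left to upper right, with Spearman's rho of 0.717.

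Of 435 hosts on the opposite strand, 15 contain 2 ribosomal protein pseudogenes and none contains more. In 2 of the 15 both pseudogenes had at least 10 counts, in 11 neither did, and in 2 only 1 of them did. Over the whole opposite class, 39.6% of pseudogenes had at least 10 counts. LARS1, the gene of the cytosolic leucyl-tRNA synthetase, has RPL35AP16 with 52 counts and RPL35AP17 with 11 on its opposite strand. TOP3A, the gene of a DNA topoisomerase, has RPL21P121 with 17 counts and RPL7AP65 with 19. RERE, the gene of a transcriptional corepressor, has RPL7P11 with 23 counts and RPL23AP19 with 0, so a shared host did not always go with shared counts.

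The 10 highest pseudogenes of the opposite class had between 138 and 517 counts. RPL23AP64, a copy of the large subunit gene RPL23A on chromosome 11 from 118873722 to 118874156 (minus strand), had 517 counts (exact Poisson interval 473.4 to 563.5), or 1189 counts per kb. It lies in an intron of CENATAC, a gene of the minor spliceosome on the plus strand from 118868848 to 118886503, and its count is above that of 97.4% of all genes on chromosomes 1 to 22. Its identity to RPL23A over the longest aligned stretch is 85.1%. RPL23AP64 thus holds by far the highest count of its class, and the stretch printed above shows bases at which it differs from RPL23A.

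RPS9P1, a copy of the small subunit gene RPS9 on chromosome 21 from 37504748 to 37505330 (plus strand), had 261 counts (230.3 to 294.7). Its host is the lncRNA gene CBR3-AS1 on the minus strand, and all 583 nt of the pseudogene lie opposite to an exon of it. RPS10P5 had 200 counts (173.2 to 229.7) opposite to FAM110A, with 109 nt opposite to an exon. RPS11P5, on chromosome 12 from 133402287 to 133402770 (plus strand), had 189 counts (163.0 to 218.0), and all of its 484 nt lie opposite to an exon of GOLGA3, the gene of a Golgi protein. These 3 are the ones among the 10 highest that share bases with an exon on the opposite strand.

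The others among the 10 highest lie opposite to introns of genes of varied function. RPL18AP2 had 193 counts (166.7 to 222.2) in PCNT, which encodes the centrosome protein pericentrin. RPL10AP1 had 181 counts in MARK3, a kinase gene, and RPL15P8 had 173 counts in LARP1B, which is itself listed at 0. RPL15P12 had 141 counts in CYRIB, RPL29P21 had 138 counts in PIK3C2A, the gene of a phosphoinositide kinase, and RPS26P41 had 138 counts in USP54. In 9 of the 10 the host is protein-coding. The same holds for 346 of the 450 in the class and for 169 of the 178 with at least 10 counts. The counts listed for the hosts, which under the settings above stand for the strand of the pseudogene, ranged from 0 for LARP1B to 1073 for CENATAC.

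In the same-strand class, the 5 highest pseudogenes had between 8 and 68 counts, each below every one of the 10 highest of the opposite class. RPL32P3, on chromosome 3 from 129115061 to 129115952 (minus strand), had 68 counts (52.8 to 86.2), RPL23AP82 had 47 (34.5 to 62.5) and RPS3AP34 had 30 (20.2 to 42.8). RPL32P3 and RPL23AP82 are annotated as transcribed unprocessed pseudogenes and share 270 nt and 469 nt with exons of a lncRNA gene on their own strand. None of these 3 lncRNA hosts has a row in the counts. RPS2P45 in TANGO6 had 9 counts (4.12 to 17.1) and RPL10P3 in ASTN2 had 8 (3.45 to 15.8).

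Among the 642 pseudogenes inside no gene, RPL9P29 stood apart with 2352 counts (exact Poisson interval 2258 to 2449), or 3966 counts per kb, the highest count of all ribosomal protein pseudogenes on chromosomes 1 to 22. RPL9P29 has 2 exons on chromosome 17 from 76842035 to 76842950 (minus strand), and it is 81.4% identical to RPL9, a large subunit gene with 142 counts. Its exons share 481 nt with exons of ENSG00000287539, a lncRNA gene on the plus strand from 76841427 to 76842768 that contains it only in part and has no row in the counts. The class held 3375 counts in all and 1023 without RPL9P29, and its mean was 5.26 counts with and 1.60 without it.

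RPL31P10 had 176 counts (151.0 to 204.0) on chromosome 12 from 6518803 to 6519179 (minus strand), 13489 nt after the end of the nearest gene on the opposite strand. RPL31P37 had 82 counts (65.2 to 101.8) and RPL27AP3 had 64 (49.3 to 81.7). RPL27AP3 lies 21891 nt after the end of SCHLAP1, a lncRNA gene known from prostate cancer, on the strand opposite to it. RPS12P3 had 47 counts (34.5 to 62.5), 6592 nt after the end of REL. RPL9P29 and RPL31P10 are the 2 pseudogenes of this class with at least 100 counts.

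Within the class inside no gene, pseudogenes that follow the 3′ end of a gene on the opposite strand at a short distance were more often listed with counts. At least 1 count was listed for 4 of 6 within 1 kb of such an end, for 23 of 63 (36.5%) over 1 kb and up to 10 kb, for 35 of 188 (18.6%) over 10 kb and up to 50 kb, and for 42 of 379 (11.1%) farther away, while the other 6 follow no such end. Among other processed pseudogenes inside no gene the shares were 58.5% of 53, 37.1% of 396, 20.8% of 1175 and 14.0% of 2471. In both sets the share with at least 1 count fell with each step of distance, and the nearest bin of ribosomal protein pseudogenes holds only 6. With at least 10 counts the shares of ribosomal protein pseudogenes were 1 of 6, 9.52%, 2.66% and 2.90%, with no fall at the last step. Those of other processed pseudogenes were 37.7%, 13.9%, 5.45% and 3.68%, with a fall at each step.

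**Figure D3:**
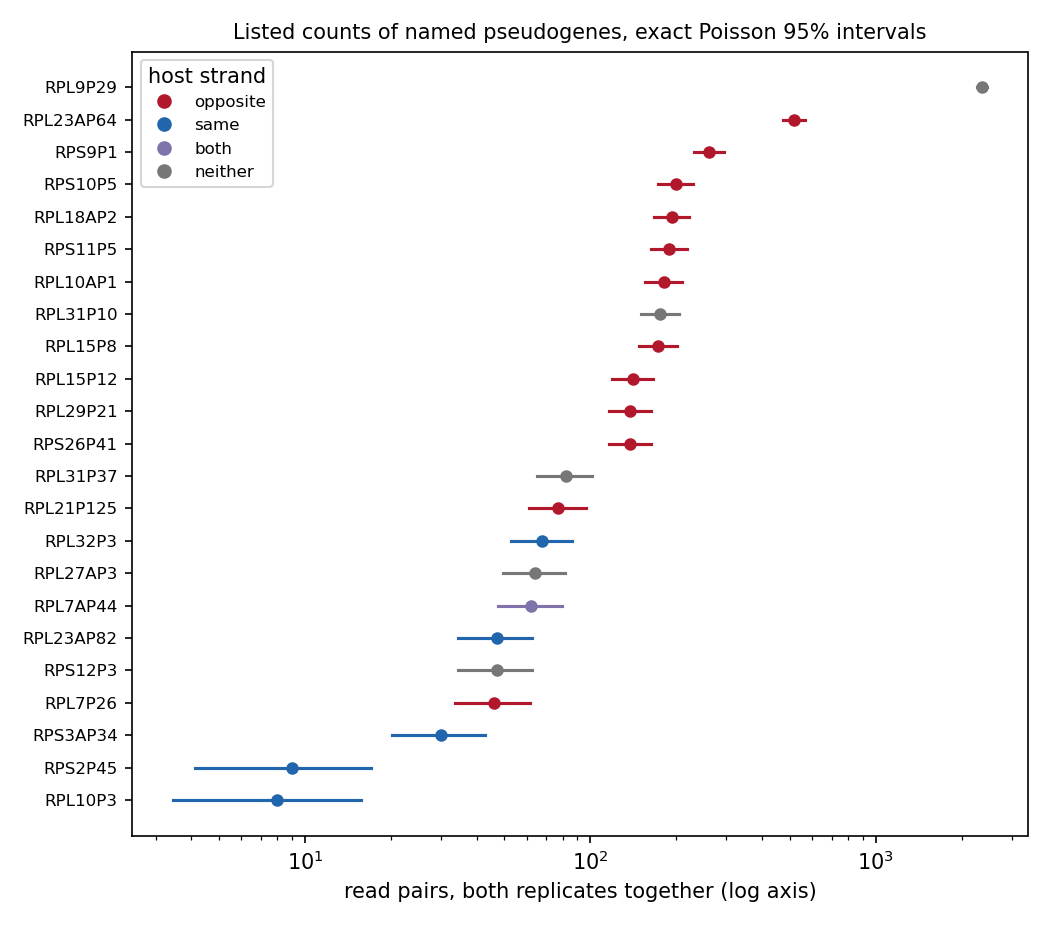
Listed read pairs of 23 named pseudogenes (horizontal axis, logarithmic) with exact Poisson 95% intervals; colours give the strand of the host gene. The highest pseudogenes of the opposite class lie between 138 and 517 counts, those of the same-strand class between 8 and 68, and RPL9P29 lies at 2352.

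The pseudogenes come from 73 parent genes, with a median of 12 for each, and 60 parents have at least 1 pseudogene with at least 10 counts. The 5 largest families, those of RPL21, RPL23A, RPL7A, RPL31 and RPL7, hold 408 pseudogenes. RPL21, a large subunit gene, has 130, of which 20 had at least 10 counts, and the highest is RPL21P125 with 77 counts opposite to TAX1BP3. RPL23A has 85, of which 17 had at least 10 counts, with RPL23AP64 as the highest. RPL7A has 77, of which 10 had at least 10 counts, and the highest is RPL7AP44 with 62 counts inside genes on both strands. RPL31 has 61, of which 16 (26.2%) had at least 10 counts, and RPL7 has 55, of which 8 did, with RPL7P26 as the highest at 46 counts.

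The difference between host strands recurred from family to family. In 31 families with at least 5 pseudogenes in the opposite class and at least 5 in the same-strand class or inside no gene, the share with at least 10 counts was higher in the opposite class in 30. The exception was RPL19, with 0 in both. In the family of RPL21, 17 of 42 opposite to a host (40.5%) had at least 10 counts and 1 of 81 of the others (1.23%). In that of RPL31 these were 12 of 19 (63.2%) and 3 of 39 (7.69%), and in that of RPL7A 8 of 30 (26.7%) and 0 of 40. The smallest differences above 0 were in the family of RPS27, with 1 of 11 and 1 of 19, and of RPS15A, with 1 of 8 and 1 of 16. These rest on single pseudogenes.

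**Figure D4:**
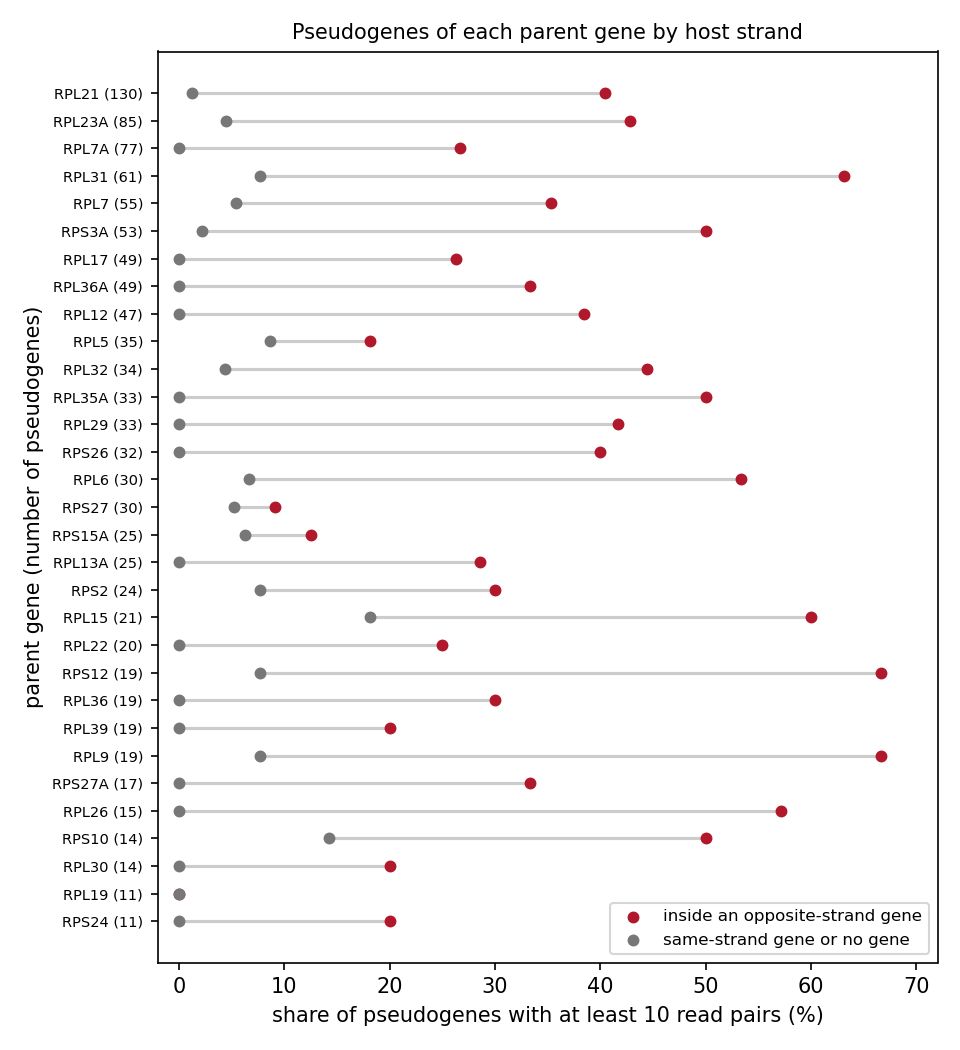
Share of pseudogenes with at least 10 listed read pairs (horizontal axis, percent) for 31 parent genes with at least 5 pseudogenes in each group; red points are pseudogenes inside an opposite-strand gene and grey points those along a gene or inside none. The red point lies to the right of the grey point for 30 parents and both lie at 0 for RPL19.

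The parent genes themselves were more often listed with counts than genes in general. The median of the 73 parents was 14 counts, from 0 for 5 of them to 1588 for RPL10, and 45 of them (61.6%) had at least 10 counts, against 27.1% and a median of 0 for all genes on chromosomes 1 to 22. Both sets are unlike in that the parents include RPL10, RPL36A, RPL39 and RPS4X on chromosome X. The parents are also all protein-coding, while the set of all genes takes in every type, pseudogenes included. Its median exonic length is 1007 nt. The parents were not compared with protein-coding genes of like length, so the higher share is not shown to be particular to them. A listed 0 allows up to 3 counts, the one-sided 95% limit. The 25 parents that lie across from an exon of some other gene had a median of 66 counts and the other 48 a median of 10. Per kb of exon, the median of the parents was 5.25 counts, against 9.51 for the pseudogenes opposite to a host. Their own parent had fewer counts than 132 of the 450 pseudogenes opposite to a host (29.3%), than 24 of the 642 inside no gene (3.74%) and than 2 of the 276 along a host (0.725%).

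Identity to the parent bears on whether a pair can be placed uniquely. For 1420 of the 1425 pseudogenes an alignment to the parent transcript was found, with a median identity of 88.7% and a range of 64.9% to 100%; 6 are identical to the parent over the aligned stretch. In the opposite class, the share with at least 10 counts was 40.4% of 272 under 90% identity, 38.6% of 114 from 90% to 95%, 46.2% of 39 from 95% to 98%, and 24.0% of 25 over 98%. The exact binomial intervals of these shares overlap, from 9.36% to 45.1% for the last and from 34.6% to 46.5% for the first. Across the 450 pseudogenes of the class, Spearman's rho of counts per kb with identity was 0.0206, with exonic length -0.0912 and with GC content 0.0523. Among pseudogenes inside no gene the shares were 2.96%, 3.81%, 7.81% and 0% in the same order. The class inside genes on both strands was not split by identity. Among the other classes, the opposite class had the highest share at each of the 4 levels of identity. Over 98%, however, its interval overlaps that of pseudogenes inside no gene, 0% to 13.2%, and that of pseudogenes along a host, 0% to 24.7%. Over all classes together the shares were 15.2% of 827, 14.2% of 400, 19.8% of 126 and 8.96% of 67.

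A remnant of the poly(A) tail was looked for as the letters AAAAAAAA on the annotated strand within the 60 nt that follow the annotated 3′ end. It was found behind 351 of the 1425 pseudogenes (24.6%) and behind 4.09% of the other processed pseudogenes, a comparison that also depends on where the annotation ends a pseudogene. The same run on the other strand, read as T in the same window, was found behind 1.96% and 2.11%. Among the classes, AAAAAAAA followed 28.2% of the opposite class, 23.2% of the same-strand class and 22.6% of those inside no gene.

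By chromosome, the share of ribosomal protein pseudogenes with at least 10 counts ranged from 4.55% on chromosome 13 to 28.1% on chromosome 17. Chromosome 2 holds the most pseudogenes, 139, of which 17 had at least 10 counts, and chromosome 22 the fewest, 17, of which 3 did. In the class inside genes on both strands, the highest counts were 80 for RPL3P1, 74 for RPL18P10 and 62 for RPL7AP44. RPL3P1 lies along CBR3-AS1, the host of RPS9P1, and opposite to DOP1B; RPL18P10 lies along DLEU1 and opposite to DLEU2, lncRNA genes of a region often deleted in leukaemia. RPL3P1 and RPL18P10 were named after their values were seen.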

How the data were processed

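Poly(A)+ RNA of LNCaP cells (2 biological replicates, 1 condition) was sequenced as strand-oriented pairs. Per the study's methods, the authors used Trimmomatic 0.30 for trimming and TopHat2 2.0.12 with Bowtie2 2.2.3 for mapping to hg19, and counted pairs with HTSeq 0.6.1p1. The authors deposited whole-number counts without normalization, replicates together in 1 column. Besides the 9495309 pairs on genes, 138995418 were on no feature, 209463 were ambiguous and 34171204 alignments were not unique; these stayed out of all values.

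Identifiers were matched without version to GENCODE 44 lifted to GRCh37; for 1302 of the 1425 pseudogenes the model version is unchanged. Hosts are protein-coding or lncRNA genes that contain the whole span of a pseudogene. Spliced pseudogenes were aligned to the canonical transcript of the parent with BLAST 2.17.0+ (word size 11). Intervals are exact Poisson and exact binomial (Clopper-Pearson) at 95%; no molecular identifiers are named in the methods, so pairs may repeat a molecule. Class assignment, medians and shares were checked on built intervals and on simulated Poisson counts with a fixed mean for each class. The allowed deviation was wider than the smallest shares reported, so this checked the code only. Python 3.11.15 with pandas 2.3.3 and scipy 1.17.1 was used.

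The members, lists and splits were chosen with earlier results of these data known. Named were the 10, 5 and 5 highest pseudogenes opposite to a host, along a host and inside none, with hosts and parents, and the highest of the 5 largest families; pairs within a host and neighbours of RPL9P29, RPL31P10, RPL27AP3 and RPS12P3 were named after their values were seen. The number of pairs limits precision: the median of all genes with a model on chromosomes 1 to 22 is 0 counts. Alternatives were the minimum count, the definition of a host, and subsets of pseudogenes. Some values of single genes and 1 sequence are not reported here.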

Additional observations from a re-analysis of the deposited data

How the results depend on the processing

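No paired analysis was possible because both replicates stand in 1 column, which also prevented leaving out each replicate. The share of ribosomal protein pseudogenes with at least the minimum count was higher opposite to a host than inside no gene, and higher inside no gene than along a host, under all 11 settings tried, the reported one included; for other processed pseudogenes this held under all 6. Of 129 values under an alternative, 103 stayed within the interval of the reported value and 26 did not. The 129 include class medians of 0, which could hardly move because most pseudogenes of those classes had 0 counts. The tally is therefore no measure of stability. With a minimum of 5 counts the shares were 49.8% opposite, 4.35% along and 7.32% inside none, for other processed pseudogenes 45.5%, 4.21% and 8.75%, and 26.6% inside genes on both strands. With a minimum of 20 counts they were 28.0% opposite, 7.02% inside genes on both strands and 2.02% inside none, and for others 29.7%, 12.6% and 3.56%. By identity to the parent over all classes, a minimum of 5 counts gave 21.9% under 90% and 18.5% from 90% to 95%, and a minimum of 20 counts gave 10.5%, 9.75% and, from 95% to 98%, 11.9%. With protein-coding hosts only, the opposite class had a share of 48.1%, a median of 9 counts and 17.7 counts per kb, and other processed pseudogenes had 47.0% opposite, 3.68% along, 29.6% inside genes on both strands and 6.41% inside none. With hosts only where they have a row in the counts, an alternative chosen after the data were seen, the share along a host was 0% of 252, since the hosts of the 3 pseudogenes with at least 10 counts have none.

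Both replicates are pooled, so the spread between them is unknown. XLOC genes of the counts have no position here, so hosts among them were missed. A count of 0 allows up to 3 counts (one-sided 95% limit), and 986 of the 1425 pseudogenes were listed at 0.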
